A study of Mus musculus with 18 samples.

Results

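Ighg1 and Ighe, the constant-region genes of the IgG1 and IgE heavy chains, were followed in B cells of the spleen and of Peyer's patches (PPs), the lymphoid follicles of the small intestine. The 2 genes were taken by symbol from a table of 55491 genes, and both passed the count filter in every comparison. All mice were female BALB/cJ mice, 10 to 12 weeks old at harvest. They were made allergic to ovalbumin (OVA), an egg white protein, with 2 i.p. injections of 20 µg OVA on 1 mg alum on days 0 and 14. On days 28 and 42 they received i.v. 100 µL PBS, 100 µg soluble OVA (sOVA), or 2.5 mg of OVA NPs, nanoparticles that encapsulate OVA, and B cells were taken on day 44, before any oral challenge. Each of the 6 combinations of tissue and treatment had 3 libraries, 18 in all. Every group, the PBS controls included, was sensitized, so a sensitized mouse and not a naive one is the baseline of each comparison, and only the PBS groups received no OVA after sensitization.

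IgE arms mast cells and basophils through their high-affinity receptor, and binding of allergen to that IgE triggers the allergic reaction. IgG1 is the main antibody that mice make to alum-adsorbed protein and can bind the same allergen without arming those cells through the IgE receptor. A B cell changes from IgM to either isotype by class switch recombination: IL-4 acting through STAT6, together with CD40 signals, opens transcription across the target constant region, and DNA breaks are then made and repaired so that it is joined to the variable region. Switching to IgE can pass through IgG1 or occur directly. Unswitched cells with an opened locus carry germline transcripts that hold the same constant exons, and plasma cells carry very large amounts of the secreted form, so a bulk level of either gene sums germline transcripts, membrane receptors, and antibody mRNA. In such libraries, fewer cells of a type and less RNA per cell cannot be told apart.

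Both genes lie on the minus strand of chromosome 12 in genome build GRCm38, with no overlapping gene in the annotation. Ighg1 (ENSMUSG00000076614) spans 113325240 to 113330523 and Ighe (ENSMUSG00000087642) spans 113269260 to 113273248, and their exons add up to 2592 and 1585 bases. Each has a secreted form of 4 exons and a membrane form of 6, in which the last coding bases of the secreted form are spliced out and membrane exons M1 and M2 are added. The coding part of M1 and M2 joined is shown first because these exons tell a receptor on a memory or germinal center (GC) cell from an antibody. The lower-case part is M1, which holds the membrane anchor, and capitals mark M2, which encodes the cytoplasmic tail. The pieces span chr12:113326544-113327572 and chr12:113269263-113269559, minus strand, and are printed from the GENCODE M21 transcripts of GRCm38.
Ighg1 M1 and M2: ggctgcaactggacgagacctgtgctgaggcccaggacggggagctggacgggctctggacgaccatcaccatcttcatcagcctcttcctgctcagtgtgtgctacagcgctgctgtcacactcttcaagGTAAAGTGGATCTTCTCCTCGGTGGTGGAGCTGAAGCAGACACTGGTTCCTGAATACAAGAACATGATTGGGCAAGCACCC
Ighe M1 and M2: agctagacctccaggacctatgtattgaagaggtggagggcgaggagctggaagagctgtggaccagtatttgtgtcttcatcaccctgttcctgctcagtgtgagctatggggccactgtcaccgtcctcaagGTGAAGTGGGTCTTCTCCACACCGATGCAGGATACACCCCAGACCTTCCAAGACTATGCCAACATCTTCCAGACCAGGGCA
M1 held 131 coding bases in Ighg1 and 134 in Ighe, and M2 held 81 in both. The matching pieces of the secreted forms follow, as the last 60 coding bases before the stop codon, with capitals for the bases that the membrane form lacks (chr12:113328979-113329038 and chr12:113271276-113271335, minus strand).
Ighg1 secreted end: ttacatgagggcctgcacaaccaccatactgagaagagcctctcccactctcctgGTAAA
Ighe secreted end: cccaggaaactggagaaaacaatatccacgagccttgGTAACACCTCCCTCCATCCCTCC
Only 5 coding bases at the Ighg1 end and 23 at the Ighe end were absent from the membrane form. The deposited counts are 1 value per gene, so they do not separate these forms.

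**Figure D1:**
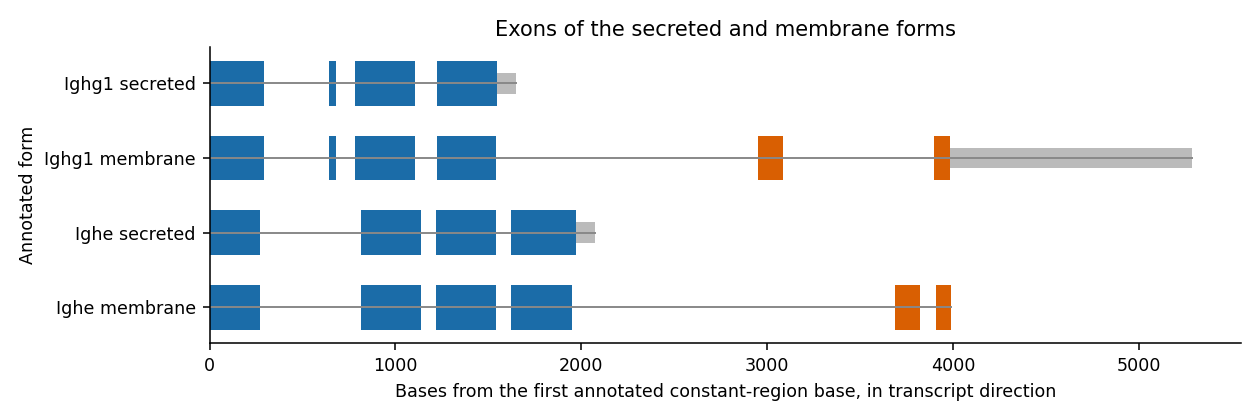
Exons of the secreted and membrane forms of Ighg1 and Ighe, with bases from the first annotated constant-region base along the x axis and 1 row per form. Tall blue bars are coding exons of both forms, tall orange bars the coding parts of membrane exons M1 and M2, and low grey bars noncoding exon parts; Ighg1 ends in a long noncoding stretch that Ighe lacks.

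IgG subclass genes are close relatives, so the distinctness of the 2 constant regions was checked against all annotated transcripts. The secreted Ighg1 coding sequence aligned with 74.9% identity to Ighg2c, 73.6% to Ighg2b, and 73.1% to Ighg3, and with 45% to Ighe. Of the 2542 distinct 50-base stretches of Ighg1, 10 (0.393%) occurred in another gene, Ighg2b or Ighg3. Of the 1536 stretches of Ighe, 0 did. The hinge exon, which links the antigen-binding arms to the rest of the antibody, is printed as a short piece in which the IgG genes differ (minus strand of chromosome 12, GRCm38). It does not stand for the other exons, which were not compared singly.
Ighg1 hinge, chr12:113329844-113329882: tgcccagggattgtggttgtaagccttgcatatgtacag
Ighg2b hinge, chr12:113307261-113307326: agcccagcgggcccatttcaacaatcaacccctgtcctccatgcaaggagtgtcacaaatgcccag
Ighg2c hinge, chr12:113288263-113288325: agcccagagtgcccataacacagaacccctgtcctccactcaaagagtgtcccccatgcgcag
Ighg3 hinge, chr12:113360529-113360576: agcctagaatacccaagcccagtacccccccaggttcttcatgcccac
The Ighg1 hinge exon had 39 bases and the others 66, 63, and 48. These are reference sequences of another mouse strain: BALB/c mice carry Ighg2a where the reference has Ighg2c, so the Ighg2c values here are those of reads assigned to the reference gene. How BALB/cJ alleles of Ighg1 and Ighe changed the read assignment was not tested.

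The libraries held 14177253 to 30052297 counts. Levels are given in CPM, counts scaled to a common library total, with TMM scaling over all 18 libraries, and 3 counts, the smallest level taken as shown, corresponded to 0.0998 to 0.212 CPM (counting error only). B cells were isolated by magnetic negative selection, and 8 B cell markers summed to 6877 CPM or more in every library. Other cells were present at low levels: summed CPM of 6 T cell markers was 1.42 to 4.17 in the spleen and 5.25 to 29.0 in the PPs, and of 5 epithelial markers 7.15 to 10.1 and 147 to 650. Mitochondrial transcripts took 2.82% to 3.41% of counts in the spleen, 4.97% to 7.67% in PPs of PBS and sOVA mice, and 9.08% to 9.80% in PPs of OVA NP mice. The labels call the libraries biological replicates but do not say which libraries share a mouse or whether mice were pooled, so p-values measure the spread between these libraries.

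In splenic B cells of PBS mice, Ighg1 was low, at 25.8, 20.5, and 50.2 CPM in the 3 libraries (504 to 1111 counts). With OVA NPs it stood at 424, 470, and 380 CPM, and with sOVA at 654, 431, and 674 CPM. Every library of either OVA treatment was above every PBS library. The group means were 32.2 ± 15.9, 425 ± 45.0, and 586 ± 135 CPM for PBS, OVA NP, and sOVA (SD, n = 3 each). Ighg1 was 13.3-fold higher with OVA NPs than with PBS (log2 fold change 3.73, SE 0.39, adjusted p = 0.0063 from edgeR's quasi-likelihood test), in a comparison in which 15% of the 14200 tested genes passed the same test. With sOVA it was 18.3-fold higher (log2 fold change 4.19, SE 0.45, adjusted p = 0.0062), against 17.2% of 14128 genes. With the replicate number as a block the difference between OVA NP and PBS was 3.80 and did not pass (adjusted p = 0.061, edgeR). By size of the log2 fold change, Ighg1 ranked 9 with OVA NPs and 7 with sOVA among the tested genes. By p it ranked 1188 and 1248. Both comparisons use the same PBS libraries.

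Ighe was scarcer. The splenic PBS libraries held 2.08, 2.24, and 3.21 CPM (48 to 71 counts), the OVA NP libraries 9.17, 15.0, and 11.7 CPM (160 to 295 counts), and the sOVA libraries 14.8, 6.47, and 15.0 CPM (104 to 385 counts). The groups with either OVA treatment again did not overlap with PBS, and sOVA library 2 was the lowest of the treated libraries for Ighe and, within its group, for Ighg1. Ighe was 4.79-fold higher with OVA NPs (log2 fold change 2.26, SE 0.21, adjusted p = 1.5e-05, edgeR) and 4.86-fold higher with sOVA (2.28, SE 0.33, adjusted p = 0.0019, edgeR). Between OVA NP and sOVA, neither gene passed the test. The log2 difference was -0.46 for Ighg1 (95% interval -0.86 to -0.06, adjusted p = 0.50, edgeR) and -0.02 for Ighe (-0.83 to 0.79, adjusted p = 0.99), where 0.238% of 13840 genes passed. The Ighg1 difference passed without a filter on low counts and without sOVA library 2 (log2 difference -0.63).

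**Figure D2:**
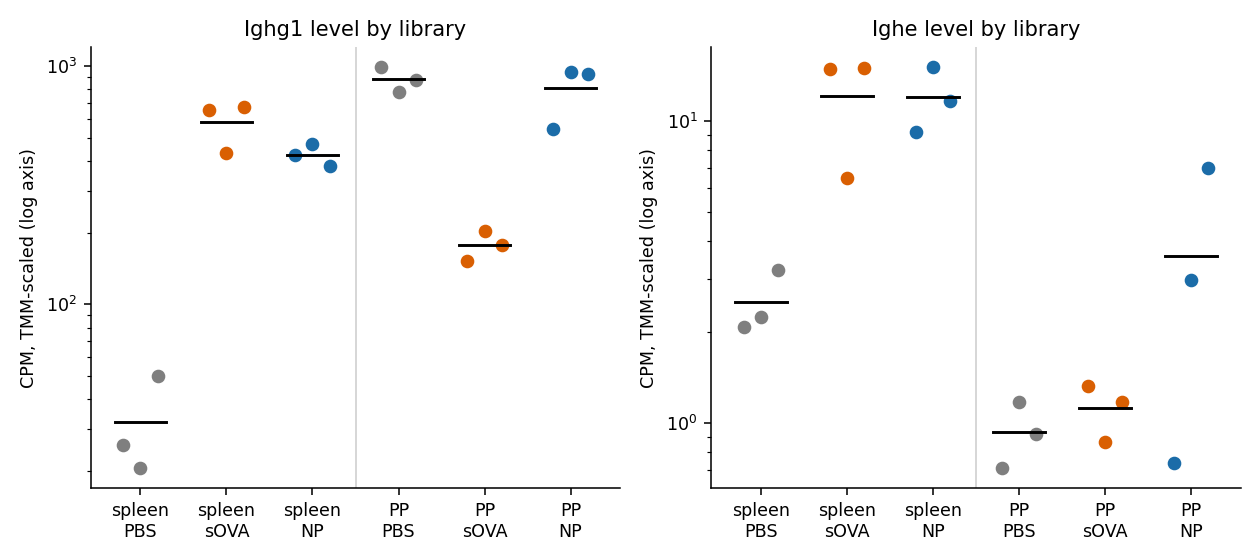
Levels of Ighg1 (left) and Ighe (right) in each of the 18 libraries, as TMM-scaled CPM on a log axis; each point is a library, each bar a group mean, and colours mark PBS (grey), sOVA (orange), and OVA NP (blue). Splenic PBS libraries sit at 20.5 to 50.2 CPM for Ighg1, below all others, while all PP libraries of PBS and sOVA mice lie below every splenic library for Ighe.

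PP B cells of PBS mice already held abundant Ighg1, at 990, 779, and 880 CPM (10640 to 23768 counts). In PPs of OVA NP mice the level was 546, 950, and 929 CPM, and library 1 of this group was below the other two and below all PBS libraries. With sOVA it was 152, 203, and 178 CPM, under every other PP library. The means were 883 ± 105 CPM for PBS, 809 ± 228 CPM for OVA NP, and 178 ± 25.6 CPM for sOVA (SD, n = 3 each). Thus Ighg1 was 5.01-fold lower with sOVA than with PBS (log2 fold change -2.32, SE 0.13, adjusted p = 8.2e-05, edgeR), in a comparison in which 27.4% of 15792 genes passed. Among them Ighg1 ranked 16 by p and 117 by size of the log2 fold change. It was 4.58-fold higher with OVA NPs than with sOVA (log2 fold change 2.20, SE 0.22, adjusted p = 0.0012, edgeR), where 30.1% of 15599 genes passed. OVA NP and PBS did not differ beyond the spread of the libraries, with a log2 difference of -0.12 and a 95% interval of -0.64 to 0.40 (adjusted p = 0.87, edgeR). In that comparison 0 of 15798 genes (0%) passed edgeR's test, 1573 had an unadjusted p below 0.05, and DESeq2 called 150 genes.

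Ighe was near the lower end of what these libraries can measure in the PPs, with 16 to 18 counts in PBS libraries (0.71, 1.17, and 0.92 CPM) and 22 to 38 counts in sOVA libraries (1.33, 0.86, and 1.17 CPM). The OVA NP libraries held 0.74, 2.97, and 6.97 CPM, from 16, 64, and 153 counts. Library 1 lay among the PBS values and libraries 2 and 3 above all PBS and sOVA libraries, so the spread within this group was larger than the level of the others. The log2 difference from PBS was 1.94 (SE 0.73, 95% interval 0.24 to 3.65) and from sOVA 1.66 (SE 0.72, -0.06 to 3.37), and neither passed (adjusted p = 0.45 and 0.13, edgeR). Without OVA NP library 3, the highest, they were 1.01 and 0.67, and without library 1 the difference from PBS was 2.42. The difference from sOVA passed with DESeq2, in the fit to all 18 libraries, and, at 2.08, without OVA NP library 1. Between sOVA and PBS the log2 difference of Ighe was 0.27 (95% interval -0.64 to 1.18, adjusted p = 0.66, edgeR). In OVA NP library 1, the summed level of 10 GC markers was also the lowest of the PPs, at 889 CPM against 1355 and 1359 CPM in the other libraries of the group. Library 1 also had the highest summed T cell and epithelial markers of its group, at 29.0 and 633.5 CPM. Its summed monocyte and macrophage markers were the lowest of the group, at 137 CPM. The part of these levels in the spread of Ighe was not tested.

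In PBS mice the tissues differed in opposite directions for the genes. Ighg1 was 27.9-fold higher in PP than in splenic B cells (log2 fold change 4.80, SE 0.41, adjusted p = 6.7e-04, edgeR), whereas Ighe was 2.69-fold lower (-1.43, SE 0.35, adjusted p = 0.0070, edgeR), and 45.6% of 15463 genes differed between the tissues. In sOVA mice both were lower in the PPs, Ighg1 by 3.30-fold (-1.72, SE 0.19, adjusted p = 4.0e-04, edgeR) and Ighe by 10.8-fold (-3.43, SE 0.36, adjusted p = 5.9e-05, edgeR), against 51.1% of 15415 genes. In OVA NP mice Ighg1 was 1.96-fold higher in the PPs (0.97, SE 0.22, adjusted p = 0.016, edgeR), which did not pass in 3 of the alternative fits. Ighe had a log2 difference of -1.71 there that did not pass (SE 0.70, 95% interval -3.45 to 0.03, adjusted p = 0.11, edgeR), and 37.1% of 15466 genes did. This Ighe difference passed in 4 alternative fits, from -1.24 without PP library 1 to -2.64 without PP library 3, and that in PBS mice did not pass in the fit to all 18 libraries.

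The difference between tissues in the response was then tested as an interaction in 12 libraries. For Ighg1 the OVA NP effect was lower in PPs than in the spleen by 3.84 on the log2 scale (SE 0.46, adjusted p = 0.0054, edgeR), and the sOVA effect was lower by 6.51 (SE 0.47, adjusted p = 1.1e-04, edgeR). For all genes, 4.42% of 16619 and 6.84% of 16541 passed these tests. For Ighe the sOVA effect was lower in PPs by 1.99 on the log2 scale (SE 0.49, adjusted p = 0.023, edgeR), a difference that no longer passed without 8 of the 12 libraries, each left out in turn, or in the fit to all 18. The interaction of Ighe with OVA NPs was -0.29 (SE 0.84, 95% interval -2.14 to 1.57, adjusted p = 0.91, edgeR), an interval too wide to say whether the tissues responded alike.

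**Figure D3:**
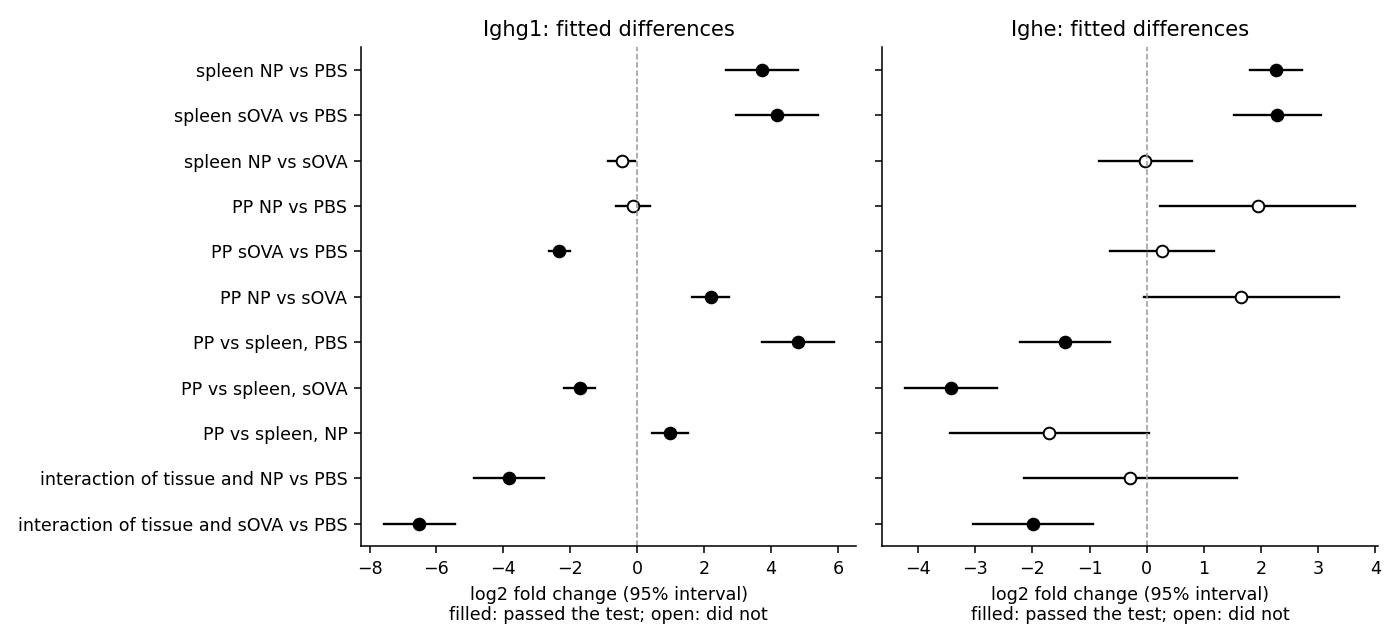
Fitted log2 fold changes of Ighg1 (left) and Ighe (right) in the 9 comparisons and 2 interactions, with 95% intervals as bars; filled points passed the test and open points did not, and the x axes of the panels differ. Ighg1 passed in 9 of the 11 tests with fold changes on both sides of 0, and Ighe passed in 5.

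By mean level the order for Ighg1 was PP of PBS, PP of OVA NP, spleen of sOVA, spleen of OVA NP, PP of sOVA, and spleen of PBS. For Ighe it was spleen of sOVA, spleen of OVA NP, PP of OVA NP, spleen of PBS, PP of sOVA, and PP of PBS. Neighbours overlapped in the first 3 steps of the Ighg1 order, and the 4 uppermost groups thus formed a chain without a gap. The step to PP of sOVA (log2 difference 1.26) and the step from there to spleen of PBS (2.56) had no overlap. In the Ighe order, spleen of OVA NP was separated from PP of OVA NP (2.24) and spleen of PBS from PP of sOVA (1.16), and the other 3 steps overlapped. An exact two-sided permutation test of 3 libraries against 3 cannot give a p below 0.1, the value of each of these 4 steps (adjusted p = 0.25 over 10). The order was the same with plain CPM.

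Levels of different genes were compared per kilobase of exon. That length joins the exons of both forms, and for Ighg1 it holds the M2 exon of 1385 bases, which the secreted form lacks. Differences between genes thus depend on the mix of forms, which the counts do not separate. In PBS spleens Ighg1 was at 12.4 ± 6.12 CPM per kb and Ighe at 1.58 ± 0.386 CPM per kb (SD, n = 3 each), while Ighm, the IgM constant region that naive cells transcribe, was at 2099 ± 167 CPM per kb. In PPs of PBS mice Ighg1 reached 341 ± 40.6 CPM per kb, above Igha at 202 ± 49.0 CPM per kb, the constant region of the gut isotype IgA, and Ighe was at 0.589 ± 0.146 CPM per kb. In PPs of sOVA mice Ighg1 stood at 68.6 ± 9.89 CPM per kb and Ighg2b at 563 ± 71.3 CPM per kb.

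The place of both genes among the 8 heavy-chain constant regions was given by their share of the summed counts of Ighm, Ighd, Ighg3, Ighg1, Ighg2b, Ighg2c, Ighe, and Igha. Those 8 genes took 0.441% to 0.614% of each library. In the spleen the Ighg1 share was 0.377% to 0.922% with PBS, 6.33% to 7.91% with OVA NPs, and 8.53% to 12.7% with sOVA, and these 3 ranges did not overlap. In PPs it was 16.9% to 21.4% with PBS, 10.5% to 20.9% with OVA NPs, and 2.87% to 4.15% with sOVA. Among the 4 IgG genes alone, Ighg1 made up 32.9% to 43.7% of counts in PBS spleens and 84.9% to 89.0% in treated spleens. In PPs it made up 63.5% to 85.0% with PBS or OVA NPs and 7.55% to 10.7% with sOVA, where Ighg2b took 28.6% to 32.0% of all 8. Reads of the BALB/c gene Ighg2a enter these shares only where they were assigned to a reference gene. How far this changed the shares was not tested. The Ighe share stayed below 0.3% everywhere: 0.0349% to 0.0589%, 0.167% to 0.253%, and 0.128% to 0.283% in spleens of PBS, OVA NP, and sOVA mice, and 0.0141% to 0.152% across the PPs.

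**Figure D4:**
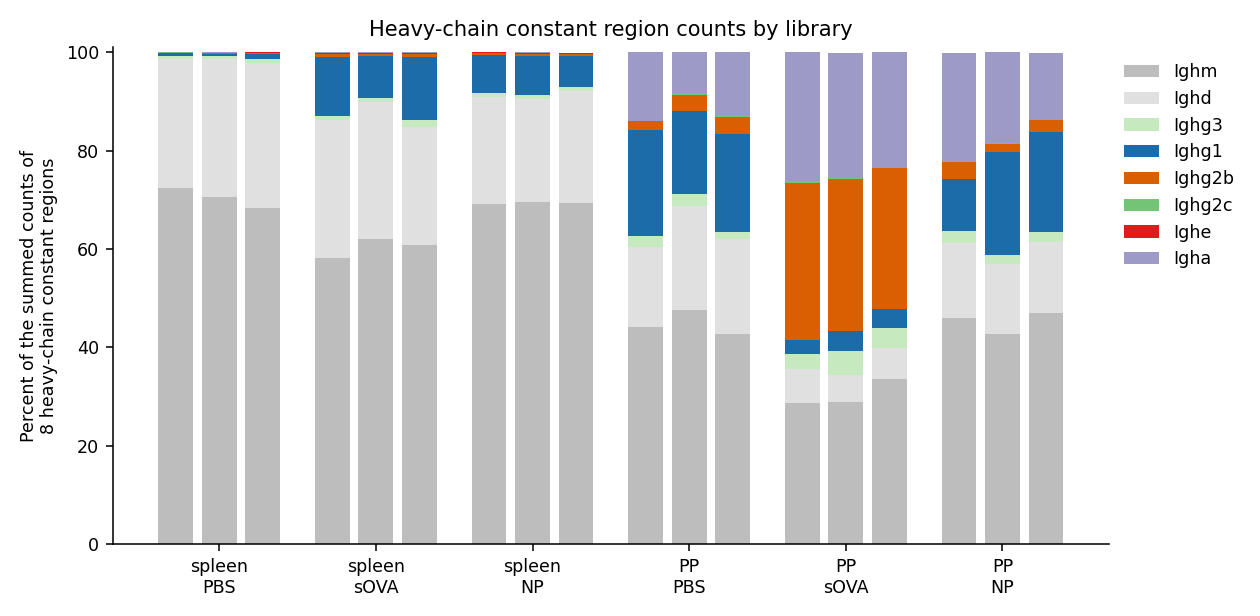
Share of each of 8 heavy-chain constant regions in their summed counts, 1 stacked bar per library, 3 libraries per group, in percent on the y axis. The Ighg1 segment (blue) grows from below 1% to between 6.33% and 12.7% in treated spleens and shrinks to 2.87% to 4.15% in PPs of sOVA mice, where Ighg2b (orange) is wide; Ighe (red) is barely visible in any bar.

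The ratio of Ighg1 to Ighe counts separated the tissues. It was 9.16 to 15.6 in PBS spleens, 31.3 to 46.2 with OVA NPs, and 44.1 to 66.5 with sOVA, and in PPs it was 665 to 1400 with PBS, 133 to 742 with OVA NPs, and 114 to 236 with sOVA. Every PP library thus exceeded every splenic library. On the log2 scale the ratio rose in the spleen by 1.58 with OVA NPs and 2.08 with sOVA over PBS, and in PPs the sOVA ratio was 2.57 below PBS, each without overlap of the groups. Each of these had the smallest p that 3 libraries against 3 allow (exact two-sided permutation p = 0.1, adjusted p = 0.14 over 27 tests of shares and ratio), as did 19 of the 27 tests. Over the 9 splenic libraries the log2 CPM of Ighg1 and Ighe had a Pearson r of 0.96, and over the 9 PP libraries 0.28. Spearman's rho, which uses ranks, was 0.87 and -0.02. These are descriptions of libraries that fall into 3 treatment groups and share their processing.

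The other genes of switching to IgG1 and IgE were counted in lists chosen with results of these data known. Of 21 genes of the recombination machinery, 7 rose and 0 fell in the spleen with OVA NPs and 6 rose and 0 fell with sOVA (medians of the log2 fold change 0.20 and 0.13, against 0.00 and -0.01 over all tested genes). Over all genes 8.6% rose and 6.35% fell with OVA NPs, and 10.5% and 6.72% with sOVA. Exo1, an exonuclease of mismatch repair, rose from 7.42 ± 0.467 CPM with PBS to 15.6 ± 3.32 with OVA NPs and 13.7 ± 0.863 with sOVA (SD, n = 3; adjusted p = 2.3e-04 and 1.8e-04, edgeR), and Ung, the glycosylase that removes uracil from DNA, from 11.2 ± 0.981 to 15.4 ± 1.51 and 18.2 ± 1.49. In the PPs 12 of the 21 genes rose with sOVA and 0 fell (median 0.35, against -0.02 over all genes, of which 13.5% rose and 13.9% fell), so the machinery was higher in the group with the lowest PP level of Ighg1. There Exo1 stood at 31.5 ± 1.78 CPM against 13.6 ± 1.06 CPM with PBS (adjusted p = 1.1e-04, edgeR), and Lig4, a DNA ligase of end joining, at 54.7 ± 3.00 against 29.1 ± 1.77 CPM (adjusted p = 1.5e-04, edgeR). Relative to sOVA, 13 of the 21 were lower with OVA NPs and 0 higher (median -0.41, against 0.03 over all genes, of which 16.3% were lower and 13.8% higher), and between OVA NP and PBS 0 passed (Exo1 12.2 ± 2.44 CPM with OVA NPs).

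Of 15 genes of the cytokine and CD40 input, 2 rose and 2 fell in the spleen with either treatment (medians -0.07 with OVA NPs and -0.10 with sOVA), against the 8.6% and 10.5% of all genes that rose and the 6.35% and 6.72% that fell. In a list of 15, these counts were near that background in both directions. Nfil3, a transcription factor induced by IL-4 and required for IgE switching in mice, rose from 2.29 ± 0.362 CPM with PBS to 7.14 ± 1.03 with OVA NPs and 12.0 ± 2.49 with sOVA (adjusted p = 6.6e-05 and 1.1e-06, edgeR), and Jak3, a kinase of the IL-4 receptor, rose also. In PPs with sOVA 8 of the 15 fell and 0 rose (median -0.38), where 13.9% of all genes fell. Il4ra, the IL-4 receptor chain, fell from 229 ± 9.80 to 138 ± 22.7 CPM, Stat6 from 216 ± 21.5 to 159 ± 14.7 CPM, and Nfil3 from 16.8 ± 1.46 to 6.50 ± 0.792 CPM. Relative to sOVA, 7 of the 15 were higher with OVA NPs, Il4ra and Stat6 among them, and 0 lower (median 0.38), where 13.8% of all genes were higher. Nfil3 was at 15.8 ± 8.11 CPM with OVA NPs, with a log2 difference from sOVA of 1.28 that did not pass (adjusted p = 0.068, edgeR).

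**Figure D5:**
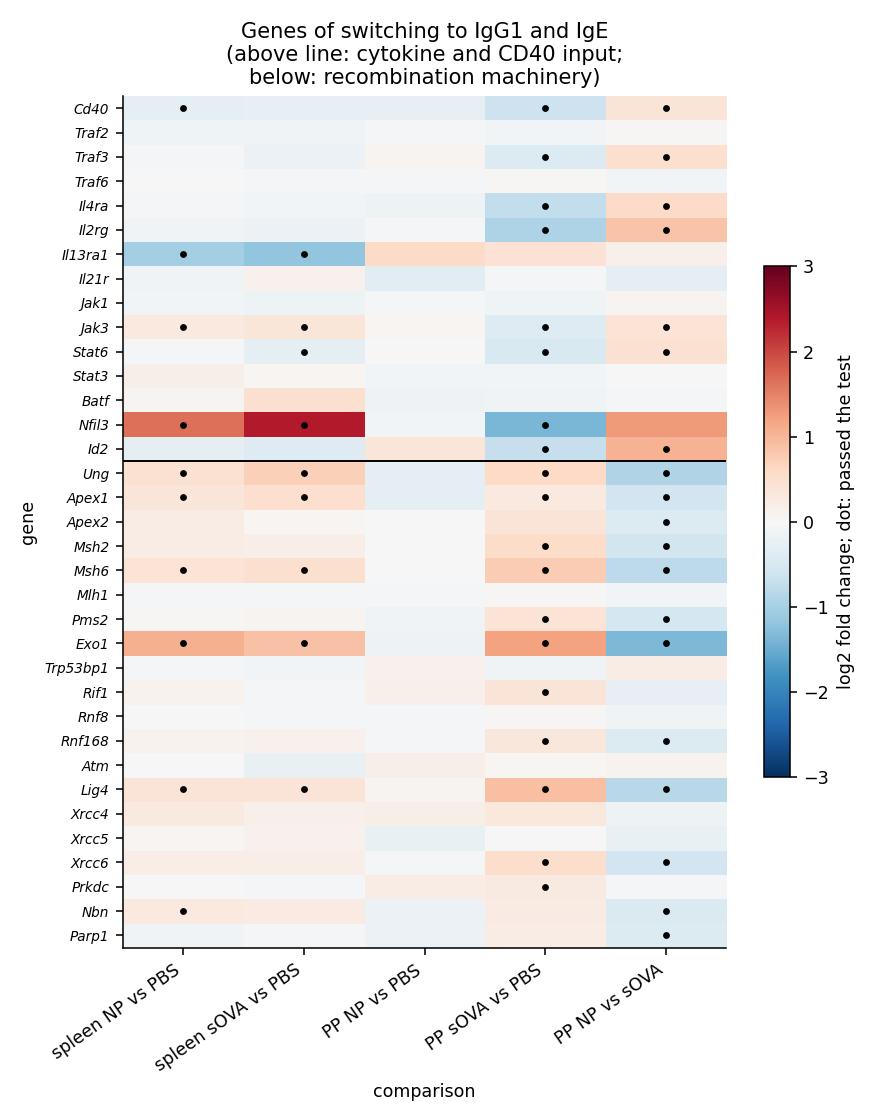
Log2 fold changes of the input genes (above the line) and of the machinery genes shown (below it) of switching to IgG1 and IgE in 5 comparisons, coloured from blue (lower) to red (higher) on a scale from -3 to 3, with a dot where the test was passed. In PPs with sOVA the input genes that passed are blue and the machinery genes that passed are red, and the OVA NP against PBS column of the PPs has no dot.

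The receptors that bind the 2 isotypes were counted as a list of 12. In the spleen 1 of 10 tested fell and 0 rose with OVA NPs, and 2 rose and 3 fell of 11 with sOVA (medians -0.15 and -0.29). Over all genes 6.35% fell with OVA NPs, and 10.5% rose and 6.72% fell with sOVA, so the count with OVA NPs was near that background. The gene that fell with OVA NPs was Fcer2a, CD23, the low-affinity IgE receptor of B cells, from 1130 ± 49.2 to 855 ± 98.0 CPM (adjusted p = 0.0017, edgeR). In PPs Fcer2a fell with sOVA from 848 ± 54.6 to 281 ± 50.4 CPM (adjusted p = 9.0e-05, edgeR) and was at 665 ± 47.3 CPM with OVA NPs. Fcgr2b, the inhibitory IgG receptor of B cells, did not pass in either tissue against PBS and lay between 129 and 199 CPM in the group means. Ms4a2 and Fcer1a, chains of the high-affinity IgE receptor of mast cells and basophils, were the genes that rose in the spleen with sOVA, to 2.89 ± 0.649 and 0.860 ± 0.172 CPM.

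Markers of other cells also differed between the groups, some in the direction of the members and some against it. The counts below stand against 8.6% of all genes higher and 6.35% lower in the spleen with OVA NPs, and 10.5% and 6.72% with sOVA. Of 8 mast cell and basophil markers, 2 of 6 tested rose in the spleen with OVA NPs and 5 of 7 with sOVA (medians 0.83 and 1.21), and their summed level was 39.4 to 46.7 CPM with PBS, 44.5 to 72.7 with OVA NPs, and 55.0 to 67.5 with sOVA. Mcpt8, a basophil protease, was at 0.890 ± 0.293, 3.95 ± 2.36, and 4.43 ± 1.35 CPM. The part of these cells in the Ighe level was not tested. Of 8 monocyte and macrophage markers, 2 of 6 tested fell with OVA NPs and 3 of 6 with sOVA (medians -0.69 and -1.56), and their sum was 86.4 to 216 CPM with PBS, 40.2 to 153 with OVA NPs, and 34.0 to 75.5 with sOVA. Of the GC markers, 8 of 9 tested rose in the spleen with OVA NPs and 10 of 10 with sOVA (medians 2.56 and 3.04), their sum going from 124 to 188 CPM to 369 to 396 and 405 to 583 CPM. Of 11 plasma cell markers, 6 of 10 tested rose with each treatment (medians 0.43 and 0.46), and 1, Irf4, fell with sOVA. Their sum was 577 to 646 CPM with PBS, 865 to 890 with OVA NPs, and 746 to 838 with sOVA. The 6 naive follicular markers all fell with OVA NPs and 4 of them with sOVA (medians -0.35 and -0.30). Of 6 memory B cell markers, 2 rose and 0 fell with either treatment (medians -0.13 and -0.08). In PPs with sOVA 9 of 10 GC markers rose (median 0.66), where 13.5% of all genes rose and 13.9% fell. The 6 naive follicular markers fell there (sums 818 to 1140 CPM against 2494 to 3290 CPM). Of 6 memory B cell markers, 2 rose and 4 fell (median -0.98), and of 10 plasma cell markers tested, 4 rose and 1 fell (median 0.12). In PPs of OVA NP over sOVA mice, in which 13.8% of all genes were higher and 16.3% lower, 4 of 6 T cell markers were higher, as were 5 of 6 dendritic cell, 3 of 6 monocyte and macrophage, 3 of 6 mast cell and basophil, and 5 of 6 naive follicular markers (medians 1.48, 0.97, 0.94, 1.03, and 1.28). In that comparison 1 dendritic cell marker was lower, and 8 of 10 GC markers were lower (median -0.73). Of the memory B cell markers, 4 were higher and 2 lower (median 0.91). Of 10 plasma cell markers tested, 0 were higher and 1 lower (median -0.04). Ms4a2 and Fcer1a are also among the markers of mast cells and basophils. The part of any of these shifts in Ighg1 or Ighe was not tested.

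The genes with the most similar log2 CPM over 9 libraries of a tissue were named for each member among 12002 genes with a mean of at least 1 CPM over all 18 libraries, as a description with no test. For Ighg1 in the spleen they were Slpi (r = 0.998), Eaf2 (0.997), Pclaf (0.996), Racgap1 (0.994), and Gcsam (0.994). Pclaf binds the replication clamp, Racgap1 acts in cytokinesis, and Gcsam is a GC signaling protein. Slpi, a secreted protease inhibitor, averaged 3.19, 52.1, and 75.8 CPM in spleens of PBS, OVA NP, and sOVA mice. For Ighg1 in the PPs they were Emp2 (r = 0.990), Emilin2 (0.988), Psd (0.985), Parm1 (0.984), and Eya1 (0.982), and Emp2, a small membrane protein, averaged 32.2, 30.6, and 5.67 CPM with PBS, OVA NPs, and sOVA. For Ighe in the spleen they were Sh2b2, H1f5, Ints11, Timm23, and Pmepa1 (r = 0.991 to 0.969), of which Sh2b2, an adaptor protein, averaged 58.1, 92.0, and 92.5 CPM. H1f5 averaged 0.432, 0.989, and 0.958 CPM there, below the minimum of 1 CPM, which it met through the PP libraries. For Ighe in the PPs they were Trim10, Tspo2, Adcy3, Ermap, and Aasdhppt (r = 0.919 to 0.873). By ranks the similarity was weaker for Trim10 (rho 0.53) and Ermap (0.57), with 0.91, 0.73, and 0.83 for Tspo2, Adcy3, and Aasdhppt. Trim10, Tspo2, and Ermap are expressed in red cell precursors. Trim10 and Tspo2 averaged below 0.31 CPM in every PP group and were listed at a mean of 0 in at least 1 of them, close to the level of 3 counts. They met the minimum through the splenic libraries, and their r in the PPs rests on few counts. The 4 erythroid markers summed in the PPs to 0.274 to 0.459 CPM with sOVA and 0.220 to 1.37 CPM with PBS. With OVA NPs they summed to 2.48, 1.02, and 2.28 CPM in libraries 1, 2, and 3. Ighe was at 0.74, 2.97, and 6.97 CPM in these libraries, and a link was not tested.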

How the data were processed

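B cell libraries were prepared from poly(A) RNA. Per the paper's methods, the authors trimmed 151 bp paired-end reads with Cutadapt 2.3, mapped them to GRCm38 (Ensembl 102) with STAR 2.7.8a, and estimated counts with RSEM 1.3.3. The deposited values are these expected counts per gene, without normalization. All values were whole numbers (0 exceptions), and 0 columns were left unused. Strandedness is not given in the sources used here.

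The 18 libraries (14177253 to 30052297 counts) were grouped by their labels. Each comparison was fitted on its own libraries in edgeR 4.0.16 (R 4.3.3), after filterByExpr (minimum count 10, minimum total 15) and TMM, by the robust quasi-likelihood F test. P-values were adjusted by Benjamini-Hochberg across the whole tested table. To pass, a gene needed an adjusted p below 0.05 and a log2 fold change beyond 0.25 in either direction, and for interactions the adjusted p alone. Levels are CPM scaled by TMM over 18 libraries. Shares, ratio (0.5 counts added), and neighbouring levels were compared by exact two-sided permutation. No replicate pair matched within counting error (chi-square per gene 4.43 to 37.6). Gene models and sequences came from GENCODE M21, an earlier annotation of the same build.

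The members and lists were chosen with earlier results of these data known. Genes named were the members, genes of 5 pathway and 11 marker lists, and the 5 genes nearest to each member by Pearson r in each tissue (log2 CPM with a prior count of 2, mean of at least 1 CPM over both tissues, no receptor segments). DESeq2 1.42.0, other normalizations, filters, library sets, and a replicate block were alternatives. On simulated counts for spleen OVA NP against PBS (14019 genes, 200 changed), edgeR recovered 197 with 5 false calls. For the interaction with OVA NPs (15289 genes) it recovered 126 with 2. Every simulated gene had the same spread beyond counting error, the changed genes were well counted, and calls used the adjusted p alone. Recovery of genes with a larger spread or fewer counts was not simulated. Some listed genes are counted but not reported here by name.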

Additional observations from a re-analysis of the deposited data

Results flagged for a closer look

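The response of the members to treatment differed between the tissues in 3 tests of the difference itself. The log2 fold change of Ighg1 with OVA NPs over PBS was lower in PPs than in the spleen by a difference of -3.84, and with sOVA by a difference of -6.51. The log2 fold change of Ighe with sOVA was lower in PPs by a difference of -1.99. With each library left out in turn, each Ighg1 difference passed in all 12 fits. The Ighe difference passed in 4 of 12, and it did not pass in the fit to all 18 libraries. With 3 libraries per group, single libraries were not tested as outliers in any other way.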

How the results depend on the processing

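The 22 fold changes of the 2 genes were refitted 322 times under other settings, and 293 refits kept direction and side of the threshold. The 183 alternatives for shares, ratio, and levels moved by less than the replicate spread. So did the log2 ratio of group means in 18 share comparisons with all counts as denominator. Leaving out 1 of 3 libraries cannot move a mean beyond that spread, so it is no test there. Of the share differences, that of Ighg1 for OVA NP over PBS in PPs (-2.18 percentage points) turned in sign without PP OVA NP library 1 (1.18), and those of Ighe for OVA NP over sOVA in the spleen and sOVA over PBS in PPs, both near 0, without splenic sOVA library 3 and PP PBS library 1. Equal replicate numbers are not stated to mark a shared mouse, cage, or day, and deviations of same-numbered libraries did not move together in every pair of any comparison (mean r between -0.19 and 0.05, single pairs up to 0.30; at most 2 of 3 libraries correlated best with their own number). Whether a number marks a shared mouse is not known. With the replicate block, Ighg1 in the spleen with OVA NPs over PBS was at 3.80 and did not pass (adjusted p = 0.061, edgeR), Ighe in the spleen for OVA NP over sOVA was at 0.012, turned in sign without passing, and Ighe in PPs over spleen with OVA NPs was at -2.01 and passed; the block changed no other call of the members. Without a count filter, Ighg1 for OVA NP over sOVA in the spleen passed at -0.47, and Ighg1 in PPs over spleen with OVA NPs did not pass at 0.99. In the fit to all 18 libraries, Ighe passed for OVA NP over sOVA in PPs at 1.66 and for PPs over spleen with OVA NPs at -1.75, and did not pass for PPs over spleen with PBS at -1.45 or in the interaction with sOVA at -1.98; DESeq2 called the first of these at 1.66.

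With each library left out, Ighg1 for OVA NP over sOVA in the spleen ran from -0.63 to -0.33 and passed at the first, without sOVA library 2. Ighe for the same comparison ran from -0.305 to 0.164, turned in sign without sOVA library 1 or 3 or OVA NP library 1, and never passed. Ighg1 for OVA NP over PBS in PPs ran from -0.246 to 0.086, and Ighe in the interaction with OVA NPs from -1.21 to 0.21; the last value of each was without PP OVA NP library 1, and none passed. Ighe for OVA NP over PBS in PPs ran from 1.01 to 2.42, without PP OVA NP library 3 and 1, and never passed. Ighe for OVA NP over sOVA in PPs ran from 0.67 to 2.08 and passed at the last, without PP OVA NP library 1. In PPs over spleen with OVA NPs, Ighe ran from -2.64 to -1.24 and passed at both, without PP OVA NP library 3 and 1, and Ighg1 ran from 0.85 to 1.17 and lost its call without splenic OVA NP library 1 (0.97) or 3 (0.89). Ighe in the interaction with sOVA ran from -2.28 to -1.80, and 8 of 12 fits did not pass. The causes were not tested. Over all genes, the call count differed by more than 1.5 times for OVA NP over sOVA in the spleen (33, DESeq2 83, no filter 230, all 18 libraries 14), OVA NP over PBS in PPs (0, DESeq2 150, no filter 146, all 18 libraries 24), the interactions with OVA NPs (734, DESeq2 1253, block 429) and sOVA (1131, DESeq2 1849), and OVA NP over sOVA in PPs (4697, block 3119). Leaving out 1 library also moved these counts: for OVA NP over sOVA in the spleen to 7 and 10 without sOVA library 1 and 3 and 0 without OVA NP library 2, for OVA NP over PBS in PPs to 8 without PBS library 3 and 2 without OVA NP library 3, for the interaction with OVA NPs to between 291 and 488 without 7 of the 12 libraries (291 without splenic OVA NP library 1), and for that with sOVA to 655 and 700 without splenic PBS library 1 and 2. The 16 counts of Ighe in the lowest PP libraries limit what can be said of it there.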
